A study of Mus musculus with 9 samples.

Results

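Endothelium both starts and restrains blood clotting, and 6 genes of this system were followed in mouse lung endothelial cells with altered Notch signalling: Vwf, F8, Thbd, Procr, Tfpi and Plat. They were chosen by name as a set of well-known haemostasis genes of endothelium, with earlier results of these data known. They are 6 of the 56748 gene identifiers counted. Each passed the filter on low counts, which left 19486 genes to test. RNA was measured in 9 libraries of sorted lung endothelial cells from C57BL/6 mice 6 weeks old, with 3 libraries each from DNMAML, Notch1f/f and WT mice. The sorted cells carried CD31 and lacked CD45 and DAPI signal. DNMAML commonly denotes a dominant-negative form of Mastermind-like that stops Notch receptors of every kind from activating their target genes. Notch1f/f is the usual notation of a conditional allele of Notch1 that a recombinase can delete. The sources used here give neither the recombinase, nor its promoter and the cells it acts in, nor any allele of the WT mice. They also do not say whether each library is a separate mouse, so a p-value covers only the spread between libraries. Both sexes occur among the libraries of each genotype, as given below, so no genotype came from a single mouse.

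As background, von Willebrand factor (Vwf) is stored in endothelial Weibel-Palade bodies, tethers platelets to injured vessels and carries factor VIII (F8) in plasma. Thrombomodulin (Thbd) binds thrombin and turns it toward activating protein C, a step that the endothelial protein C receptor (Procr) enhances. Tissue factor pathway inhibitor (Tfpi) blocks the start of coagulation, and tissue plasminogen activator (Plat) starts the breakdown of fibrin. In the lung, Vwf is known to be higher in the larger vessels and veins than in the capillaries.

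The 6 genes showed 3 patterns. Vwf and Thbd were lower in every DNMAML and every Notch1f/f library than in any WT library. Plat rose in Notch1f/f libraries against WT, and it was the only member past the threshold in any of the 3 comparisons of the fit to all 9 libraries. That is 1 of 6 in a comparison where 0.836% of all tested genes passed. F8 and Procr were also higher in every Notch1f/f library than in any DNMAML or WT library, without passing the test. Tfpi was higher in every DNMAML and Notch1f/f library than in any WT library, by about the same small amount. Of all tested genes, 14.4% did not overlap in DNMAML against WT, 17.8% in Notch1f/f against WT and 9.72% in Notch1f/f against DNMAML. The share of genes apart from WT in both altered genotypes was not counted.

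Sequence around the transcription start was at hand for F8, Procr and Tfpi, and it is shown for orientation and for the match to the core site of RBPJ, the DNA-binding partner of Notch. Each window is a RefSeq promoter on build GRCm38.p6, holds 250 bases before and 50 bases after the start, and is printed 5′ to 3′ on the strand of the gene. Capitals mark the letters TGGGAA on either strand, which in the Tfpi window read TTCCCA. The windows are chrX:75379992-75380291, minus strand, for F8, chr2:155750967-155751266, plus strand, for Procr, and chr2:84476710-84477009, minus strand, for Tfpi.
F8: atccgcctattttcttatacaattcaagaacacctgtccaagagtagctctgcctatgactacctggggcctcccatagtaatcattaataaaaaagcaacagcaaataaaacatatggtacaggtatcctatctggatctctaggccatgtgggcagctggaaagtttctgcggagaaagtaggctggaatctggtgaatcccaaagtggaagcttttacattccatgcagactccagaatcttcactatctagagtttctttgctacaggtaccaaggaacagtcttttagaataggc
Procr: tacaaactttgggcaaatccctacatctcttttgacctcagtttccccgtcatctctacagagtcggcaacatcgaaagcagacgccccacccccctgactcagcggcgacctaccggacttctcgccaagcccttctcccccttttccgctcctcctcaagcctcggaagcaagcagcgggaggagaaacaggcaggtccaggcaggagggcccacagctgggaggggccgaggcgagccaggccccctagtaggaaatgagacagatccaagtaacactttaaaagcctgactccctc
Tfpi: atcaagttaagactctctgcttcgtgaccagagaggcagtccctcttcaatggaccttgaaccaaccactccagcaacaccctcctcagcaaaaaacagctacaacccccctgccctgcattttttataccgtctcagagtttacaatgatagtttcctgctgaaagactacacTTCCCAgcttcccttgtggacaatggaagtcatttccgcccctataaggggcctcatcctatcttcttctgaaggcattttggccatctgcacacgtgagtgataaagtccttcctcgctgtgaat
The letters TGGGAA were searched on both strands, and they lie 71 to 76 bases before the start in this Tfpi window. They were not found in the F8 or Procr window, nor in the second listed Tfpi window at chr2:84474125-84474424. Of 32851 promoter windows of the same length, 25.6% held them. The longer form GTGGGAA, which contains TGGGAA, was in 0 of the 4 windows of these genes and in 6.38% of all windows.

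Total counts ran from 15522100 to 27842496 per library. Levels are given as CPM, the usual abundance relative to the scaled library size. Notch1 had 679, 872 and 777 CPM in DNMAML, 70.8, 29.5 and 176 CPM in Notch1f/f, and 766, 909 and 811 CPM in WT libraries, so each Notch1f/f library lay below the rest. The endothelial junction genes Cdh5 and Pecam1 had at least 5366 and 3408 CPM in each library, and 10 endothelial markers summed to 15213 to 18353 CPM in Notch1f/f, 16318 to 17761 CPM in DNMAML and 16933 to 18615 CPM in WT libraries. The pan-leukocyte gene Ptprc, which encodes the CD45 used to exclude cells, reached 27.95 CPM in DNMAML replicate 1. Platelet markers set that library apart, with a sum of 1795 CPM over 12 genes against 115 to 761 CPM in the other libraries. Immediate early genes were lowest in DNMAML replicate 2, Notch1f/f replicate 1 and WT replicate 2, at 3463, 4719 and 4628 CPM, against at least 8057 CPM elsewhere. Y-linked genes were expressed in DNMAML replicates 1 and 3, Notch1f/f replicate 1 and WT replicate 2, so each genotype held libraries of both sexes.

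**Figure D1:**
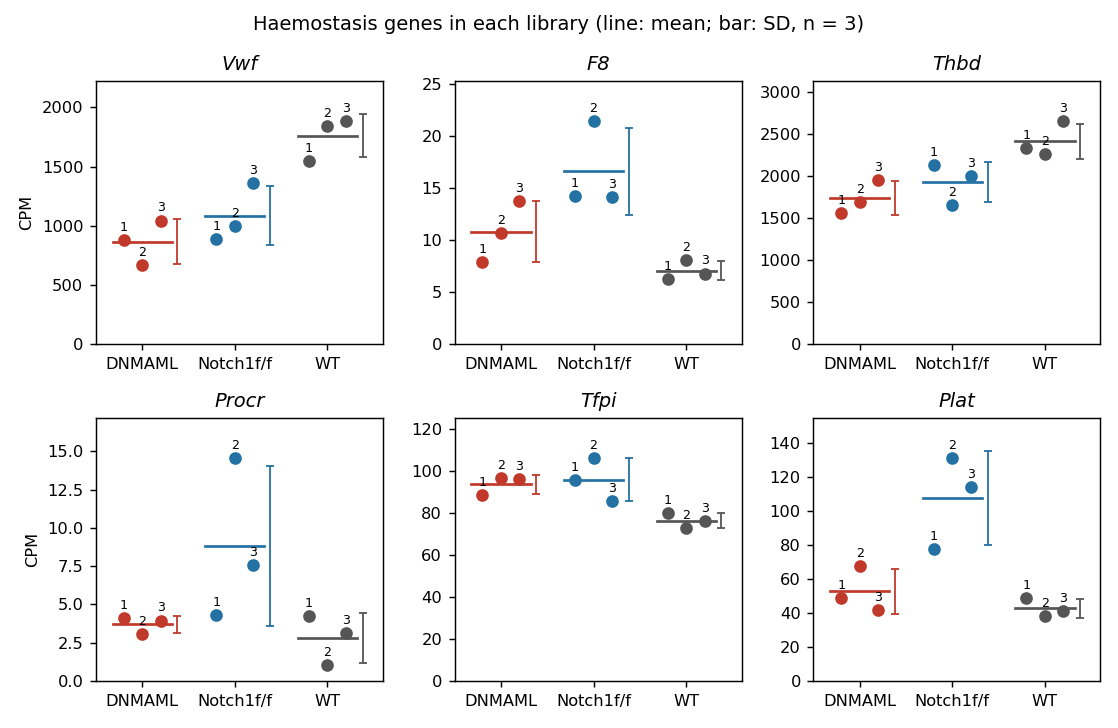
Level of each gene in each library, as CPM on a linear axis from 0, by genotype; points are libraries with their replicate number, lines are the means of 3 libraries and bars are SD. Vwf and Thbd points of DNMAML and Notch1f/f lie below all WT points, while Procr, Plat and F8 points of Notch1f/f lie above all others.

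Levels can be compared between genes only per length of transcript. Per kilobase of exon, Thbd was the highest of the 6 genes in each genotype, with mean levels of 467 CPM per kilobase in DNMAML, 518 in Notch1f/f and 649 in WT. On this scale it ranked 43, 35 and 26 among all tested genes in DNMAML, Notch1f/f and WT. Vwf followed at 53.8, 67.5 and 109.5 CPM per kilobase in DNMAML, Notch1f/f and WT. Tfpi, Plat, Procr and F8 came next in that order, from 17.1, 8.44, 1.82 and 1.09 CPM per kilobase in DNMAML and 17.5, 17.2, 4.34 and 1.67 in Notch1f/f to 13.9, 6.84, 1.38 and 0.712 in WT. The order of the 6 means was the same in each genotype, but neighbours low in that order were not always apart. Per kilobase, Plat exceeded Tfpi in Notch1f/f replicates 2 and 3 (21.0 against 19.4, and 18.3 against 15.7), and F8 exceeded Procr in WT replicate 2 (0.815 against 0.505).

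Vwf (ENSMUSG00000001930, chromosome 6, 125523737 to 125663642, plus strand, GRCm39), with 56 merged exons, had 881, 668 and 1044 CPM in DNMAML libraries, 891, 999.5 and 1364 CPM in Notch1f/f libraries and 1549.7, 1844 and 1883 CPM in WT libraries. The 3 DNMAML and the 3 Notch1f/f libraries all lay below the lowest WT library, and DNMAML and Notch1f/f libraries overlapped. Mean levels were 864 ± 189 CPM in DNMAML, 1085 ± 248 CPM in Notch1f/f and 1759 ± 182 CPM in WT (SD, n = 3 each).
Differences between genotypes are given on the log2 scale with their standard error (SE), and adjusted p-values come from edgeR's quasi-likelihood test with Benjamini-Hochberg adjustment over all 19486 genes, with a threshold of 0.05. The Vwf difference was -1.03 (SE 0.20, edgeR adjusted p = 0.146) for DNMAML against WT and -0.70 (SE 0.20, edgeR adjusted p = 0.123) for Notch1f/f against WT. Between Notch1f/f and DNMAML it was 0.33 (SE 0.20, edgeR adjusted p = 0.928). Neither difference from WT passed the threshold in the fit to all 9 libraries.
Same-numbered DNMAML and WT libraries deviated together from their group means across genes, so the library number was also entered as a replicate block. The block was thus chosen from these same data. Each numbered pair joined a Y-expressing library with a library of the other sex, so the pairs were not matched by sex. In that blocked fit to the 6 DNMAML and WT libraries, Vwf fell by 1.04 on the log2 scale (edgeR adjusted p = 0.00621), and within the numbered pairs the difference was -0.82, -1.47 and -0.85. With the block but all 9 libraries, Vwf did not pass (edgeR adjusted p = 0.102). Without the block, the fit to the 6 libraries alone gave an edgeR adjusted p of 0.0447, and DESeq2 on all 9 libraries gave an adjusted p of 0.000163. Leaving out Notch1f/f replicate 1, a library of neither group, also brought Vwf past the threshold (edgeR adjusted p = 0.0379). Over all 17 other settings, the edgeR, limma-voom and DESeq2 adjusted p for DNMAML against WT ran from 7.74e-07 to 0.432, with the difference below 0 in each. For Notch1f/f against WT, Vwf passed with DESeq2 (adjusted p = 0.016) and with no filter on low counts (edgeR adjusted p = 0.00166), within a range of adjusted p up to 0.385. With no filter, the p-values of the 6 genes took the spread between libraries as known. They thus overstate what 3 libraries a genotype can show.

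Summed markers of arterial and venous cells, which include endothelium of the larger vessels, were lower in each DNMAML library than in any WT library as well. So were summed lymphatic markers, at 846 to 966 CPM in DNMAML against 973 to 1043 CPM in WT, though 6 of 10 had point estimates above 0. Sums of general capillary and aerocyte capillary markers overlapped between DNMAML and WT, with 5 of 9 and 6 of 10 point estimates below 0. Arterial markers summed to 2319 to 2730 CPM in DNMAML, 2080 to 3025 CPM in Notch1f/f and 2837 to 3318 CPM in WT libraries. Point estimates were below 0 for 9 of 10 arterial markers in DNMAML against WT, with a median difference of -0.28, and 0 of the 10 passed the threshold, while 2 fell in the blocked fit, where 1.71% of all genes passed. Venous markers summed to 830 to 1057 CPM in DNMAML, 934 to 1353 CPM in Notch1f/f and 1120 to 1299 CPM in WT libraries, with 8 of 10 point estimates below 0 in DNMAML, 0 past the threshold and 2 that fell in the blocked fit. Efnb2, an arterial membrane ligand, had 552, 761 and 812 CPM in DNMAML, 561, 355 and 587 CPM in Notch1f/f and 1036, 1036 and 1069.55 CPM in WT libraries, and fell in Notch1f/f against WT by 1.06 on the log2 scale (edgeR adjusted p = 0.0336). That was 1 of 10 arterial markers past the threshold there, where 0.323% of all tested genes fell. Over the whole list 7 point estimates were below 0 and 3 above in that comparison, with a median difference of -0.106.
The part of these markers in the Vwf values was not tested, and in bulk samples fewer cells of a type and less RNA per cell cannot be told apart. Platelets and megakaryocytes also hold Vwf transcripts, and DNMAML replicate 1, the library with the highest platelet sum, had 881 CPM of Vwf, between the other DNMAML libraries. Their part in the Vwf values was not tested either. By sex, the Y-expressing libraries had 881 and 1044 CPM of Vwf in DNMAML, 891 CPM in Notch1f/f and 1844 CPM in WT. The others had 668 CPM in DNMAML, 999.5 and 1364 CPM in Notch1f/f, and 1549.7 and 1883 CPM in WT, so WT was highest within both sexes.

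F8 (ENSMUSG00000031196, chromosome X, 74216321 to 74426221, minus strand, GRCm39, 27 merged exons) encodes the cofactor that von Willebrand factor carries, and its level was the lowest of the 6 genes per kilobase. F8 had 7.90, 10.7 and 13.7 CPM in DNMAML libraries, 14.2, 21.4 and 14.1 CPM in Notch1f/f libraries and 6.29, 8.08 and 6.78 CPM in WT libraries. Every Notch1f/f library lay above every DNMAML and WT library, while the lowest DNMAML library lay among the WT libraries. These levels rest on 197 to 376 counts in DNMAML, 250 to 483 counts in Notch1f/f and 121 to 133 counts in WT libraries.
Mean F8 levels were 10.8 ± 2.92 CPM in DNMAML, 16.6 ± 4.17 CPM in Notch1f/f and 7.05 ± 0.922 CPM in WT (SD, n = 3 each). The F8 difference was 1.23 (SE 0.29, edgeR adjusted p = 0.0663) for Notch1f/f against WT, just short of the threshold. It was 0.61 (SE 0.28, edgeR adjusted p = 0.845) for DNMAML against WT and 0.62 (SE 0.28, edgeR adjusted p = 0.782) for Notch1f/f against DNMAML. Notch1f/f against WT passed with DESeq2 (adjusted p = 0.00248), with no filter (edgeR adjusted p = 0.00525) and without Notch1f/f replicate 1 (edgeR adjusted p = 0.0467), and its adjusted p over all settings reached 0.257.
F8 lies on the X chromosome, and its values were therefore also read within each sex. The Y-expressing libraries had 7.90 and 13.7 CPM in DNMAML, 14.2 CPM in Notch1f/f and 8.08 CPM in WT. The others had 10.7 CPM in DNMAML, 21.4 and 14.1 CPM in Notch1f/f, and 6.29 and 6.78 CPM in WT. Notch1f/f was highest within both sexes, with 1 or 2 libraries of each genotype in each. No exon base of F8 is shared with the 3 annotated genes that lie within its span, nor do the other 5 genes share exon bases with a neighbour.

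Thbd (ENSMUSG00000074743, chromosome 2, 148246386 to 148250108, minus strand, GRCm39), a gene of 1 exon, had 1559.7, 1697 and 1957 CPM in DNMAML libraries, 2127, 1660.3 and 1998 CPM in Notch1f/f libraries and 2331, 2265 and 2653 CPM in WT libraries. As for Vwf, both altered genotypes lay below every WT library and overlapped each other. Means were 1738 ± 202 CPM in DNMAML, 1929 ± 241 CPM in Notch1f/f and 2417 ± 208 CPM in WT (SD, n = 3 each). The difference was smaller than that of Vwf, at -0.48 (SE 0.15, edgeR adjusted p = 0.506) for DNMAML against WT and -0.33 (SE 0.15, edgeR adjusted p = 0.379) for Notch1f/f against WT. It was 0.15 (SE 0.15, edgeR adjusted p = 0.999) for Notch1f/f against DNMAML. In the blocked fit to the 6 DNMAML and WT libraries, Thbd fell by 0.48 on the log2 scale (edgeR adjusted p = 0.0324, against 0.245 without the block and 0.477 with the block and all 9 libraries), with within-pair differences of -0.58, -0.42 and -0.44. That was the only setting of 17 in which Thbd passed, and adjusted p over the edgeR, limma-voom and DESeq2 settings reached 1. Vwf and Thbd together took 0.243%, 0.239% and 0.295% of all counts in DNMAML libraries, 0.315%, 0.275% and 0.327% in Notch1f/f libraries and 0.376%, 0.413% and 0.443% in WT libraries.

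Procr (ENSMUSG00000027611, chromosome 2, 155593037 to 155597391, plus strand, GRCm39, 3 merged exons), the partner of Thbd in protein C activation, was measured far lower. It had 4.09, 3.05 and 3.95 CPM in DNMAML libraries, 4.30, 14.6 and 7.55 CPM in Notch1f/f libraries and 4.21, 1.03 and 3.16 CPM in WT libraries. Notch1f/f libraries lay above all others, but replicate 1 did so by little and replicate 2 stood far above. The counts behind these levels were 61 to 108 in DNMAML, 96 to 329 in Notch1f/f and 16 to 81 in WT libraries. Procr means were 3.69 ± 0.566 CPM in DNMAML, 8.81 ± 5.25 CPM in Notch1f/f and 2.80 ± 1.62 CPM in WT (SD, n = 3 each). The Procr difference was 1.65 (SE 0.56, edgeR adjusted p = 0.194) for Notch1f/f against WT, and it passed only with no filter on low counts (edgeR adjusted p = 0.0182). It was 0.40 (SE 0.55, edgeR adjusted p = 0.999) for DNMAML against WT and 1.25 (SE 0.55, edgeR adjusted p = 0.765) for Notch1f/f against DNMAML. Thbd and Procr, which act in the same reaction, thus had point estimates of opposite sign in Notch1f/f against WT.

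Tfpi (ENSMUSG00000027082, chromosome 2, 84263199 to 84307119, minus strand, GRCm39, 12 merged exons) had 88.4, 96.4 and 95.8 CPM in DNMAML libraries, 95.5, 106 and 85.7 CPM in Notch1f/f libraries and 79.7, 72.6 and 76.1 CPM in WT libraries. Both altered genotypes lay above every WT library and overlapped each other. Mean Tfpi levels were 93.5 ± 4.43 CPM in DNMAML, 95.7 ± 10.2 CPM in Notch1f/f and 76.1 ± 3.54 CPM in WT (SD, n = 3 each). The Tfpi difference was 0.30 (SE 0.12, edgeR adjusted p = 0.698) for DNMAML against WT and 0.33 (SE 0.12, edgeR adjusted p = 0.218) for Notch1f/f against WT, and it passed in none of the 17 other settings. Notch1f/f against DNMAML gave 0.03 (SE 0.12, edgeR adjusted p = 0.999), and the sign of that difference turned when DNMAML replicate 1 (-0.0064) or Notch1f/f replicate 2 (-0.040) was left out, each with an edgeR adjusted p of 1.

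Plat (ENSMUSG00000031538, chromosome 8, 23247743 to 23272860, plus strand, GRCm39, 13 merged exons) had 48.7, 67.6 and 41.8 CPM in DNMAML libraries, 77.4, 131 and 114 CPM in Notch1f/f libraries and 48.7, 38.2 and 41.1 CPM in WT libraries. Every Notch1f/f library lay above every other library, and DNMAML and WT libraries overlapped. Mean Plat levels were 52.7 ± 13.4 CPM in DNMAML, 108 ± 27.6 CPM in Notch1f/f and 42.7 ± 5.43 CPM in WT (SD, n = 3 each). Plat rose 2.52-fold in Notch1f/f against WT, a difference of 1.34 (SE 0.22, edgeR adjusted p = 0.0207). Against DNMAML the Notch1f/f difference was 1.03 (SE 0.22, edgeR adjusted p = 0.311), and DNMAML against WT gave 0.30 (SE 0.22, edgeR adjusted p = 0.999).
The Plat call against WT was lost without WT replicate 1, 2 or 3 (edgeR adjusted p = 0.0782, 0.0948 and 0.0816) and without Notch1f/f replicate 2 (edgeR adjusted p = 0.0743). The difference itself ran from 1.17 to 1.52 over all 17 other settings. Notch1f/f against DNMAML passed with DESeq2 (adjusted p = 0.00533) and with no filter (edgeR adjusted p = 9.11e-07). The Y-expressing libraries had 48.7 and 41.8 CPM of Plat in DNMAML, 77.4 CPM in Notch1f/f and 38.2 CPM in WT. The others had 67.6 CPM in DNMAML, 131 and 114 CPM in Notch1f/f, and 48.7 and 41.1 CPM in WT.

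Mural markers summed to 346 to 744 CPM in DNMAML, 150 to 300.0 CPM in Notch1f/f and 585 to 890 CPM in WT libraries, so each Notch1f/f library lay below the others. In Notch1f/f against WT 4 of the 12 fell, against 0.323% of all tested genes, with a median difference of -1.51. Of 10 fibroblast and 12 epithelial markers 0 passed edgeR's test there, and their sums overlapped between genotypes. Point estimates were still below 0 for 9 of 10 fibroblast and 12 of 12 epithelial markers, with median differences of -1.02 and -0.89. Of 5 tested mesothelial markers 4 were below 0, with a median of -1.06, and 0 passed. Cell cycle genes, in contrast, summed to 263 to 337 CPM in DNMAML, 67.3 to 426 CPM in Notch1f/f and 17.4 to 19.5 CPM in WT libraries. Plat, F8 and Procr were lowest or middle among the Notch1f/f libraries in replicate 1, which also had the lowest cell cycle sum of that genotype. Aerocyte capillary markers summed to 4566 to 6532 CPM in DNMAML, 3173 to 4584 CPM in Notch1f/f and 5653 to 6665 CPM in WT libraries. In Notch1f/f against WT 8 of these 10 had point estimates below 0, with a median difference of -0.87, and 1 fell past the threshold. For 7 of 10 each Notch1f/f library lay below every WT library, against 9.33% of all tested genes. The part of these markers in the Plat, F8 and Procr values was not tested.

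Counted together, 0 of the 6 genes passed for DNMAML against WT, where 1 of all 19486 tested genes (0.00513%) did. At an unadjusted edgeR p below 0.05 there were 3 of 6, against 5.97% of all genes, and DESeq2 called 1 of the 6, against 1.09% of all genes. In the blocked fit to the 6 libraries 2 of 6 passed, against 1.71% of all genes. In Notch1f/f against WT, 1 of 6 passed in the fit to all 9 libraries, against 163 genes or 0.836% of all. There 5 of 6 had an unadjusted edgeR p below 0.05, against 13.4% of all, and DESeq2 called 3, against 5.44% of all. Between Notch1f/f and DNMAML, 0 of 6 passed, against 4 genes or 0.0205% of all, while 3 of 6 had an unadjusted edgeR p below 0.05, against 6.37% of all, and DESeq2 called 1, against 0.893% of all.
Libraries of the groups did not overlap for 3 of 6 genes in DNMAML against WT, where 14.4% of all tested genes did not overlap. In Notch1f/f against WT this held for 6 of 6, against 17.8% of all genes, and in Notch1f/f against DNMAML for 3 of 6, against 9.72% of all genes. The median difference of the 6 genes was 0.30, 0.78 and 0.47 for DNMAML against WT, Notch1f/f against WT and Notch1f/f against DNMAML. Over all tested genes the medians were 0.01, 0.02 and 0.00404. The comparisons share libraries and are therefore not independent of each other. The 6 genes were chosen with earlier results of these data known, so the shares beside them are no independent test of the set.

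**Figure D2:**
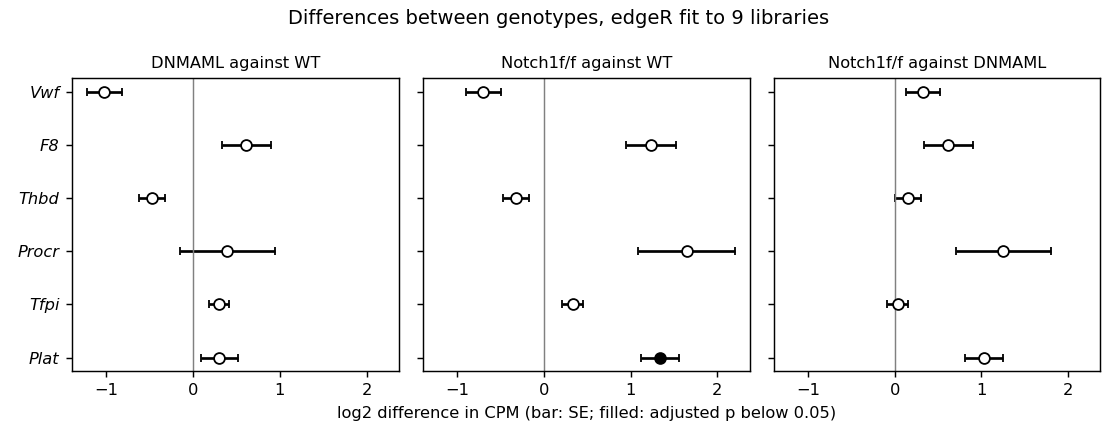
Difference of each gene on the log2 scale in the 3 comparisons; points are estimates from the fit to all 9 libraries, bars are SE, and filled points passed the threshold of 0.05. Vwf and Thbd lie left of 0 in both comparisons with WT, and Plat in Notch1f/f against WT, at 1.34, is the difference past the threshold.

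**Figure D3:**
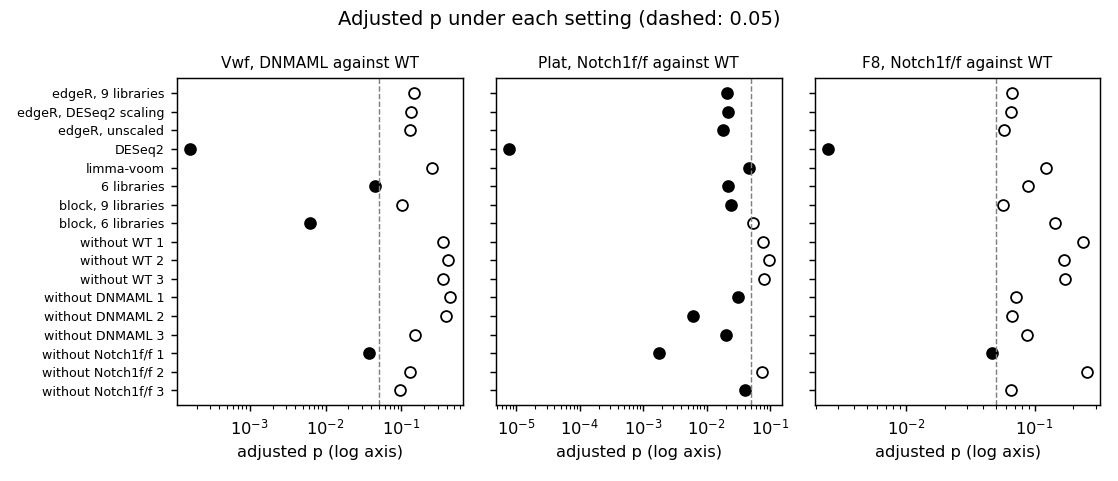
Adjusted p on a logarithmic axis of Vwf in DNMAML against WT, and of Plat and F8 in Notch1f/f against WT, in the fit to all 9 libraries and the other settings except that with no filter on low counts; the dashed line marks 0.05 and filled points passed. Each of the 3 differences has points on both sides of the line.

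The wider haemostasis system was read from 6 lists that hold 66 further genes, of which 51 were tested. Counts are read against the 0.00513%, 0.836% and 0.0205% of all tested genes that passed in DNMAML against WT, Notch1f/f against WT and Notch1f/f against DNMAML. For DNMAML against WT, 0 of 51 passed edgeR's test, 4 had an unadjusted p below 0.05, DESeq2 called 3, 29 point estimates were above 0 and 22 below, and the median difference was 0.05. In Notch1f/f against WT, 1 rose and 0 fell, 10 had an unadjusted edgeR p below 0.05 and DESeq2 called 4, with 28 point estimates above 0 and 23 below and a median of 0.07. Between Notch1f/f and DNMAML, 0 of 51 passed, 7 had an unadjusted edgeR p below 0.05 and DESeq2 called 2, with 21 point estimates above 0 and 30 below and a median of -0.05. At an unadjusted p below 0.05 the shares of all genes were 5.97%, 13.4% and 6.37% in the same order of comparisons, and with DESeq2 they were 1.09%, 5.44% and 0.893%. In the blocked fit to the DNMAML and WT libraries 1 gene rose and 2 fell, where 1.71% of all genes passed. Groups did not overlap for 6 of 51 genes in DNMAML against WT, 9 in Notch1f/f against WT and 5 in Notch1f/f against DNMAML, against 14.4%, 17.8% and 9.72% of all tested genes.

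**Figure D4:**
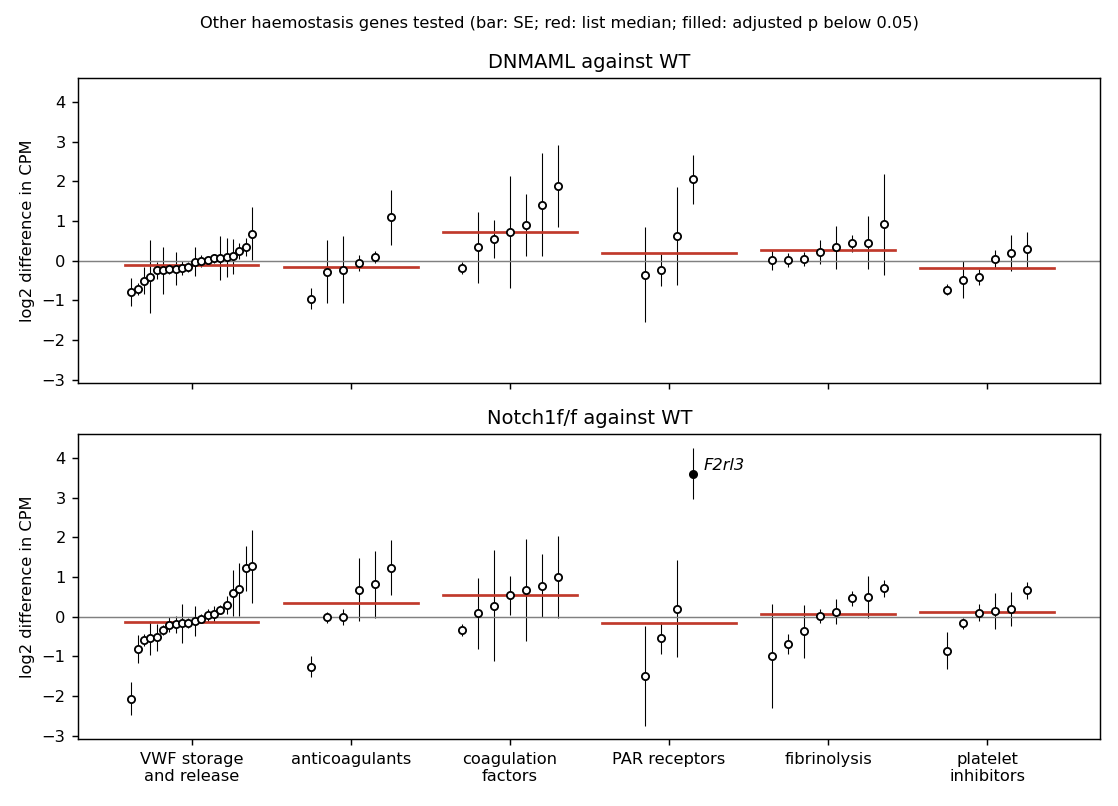
Difference of each tested gene of the 6 haemostasis lists on the log2 scale, for DNMAML against WT and Notch1f/f against WT; points are genes, bars are SE, red lines are list medians and filled points passed the threshold. The list medians lie between -0.18 and 0.73, and F2rl3, at 3.60 in Notch1f/f against WT, stands above the rest.

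Among the receptors for thrombin, F2rl3, which encodes the protease-activated receptor 4, was the gene that rose. It had 3.69, 3.20 and 0.804 CPM in DNMAML libraries, 5.10, 10.1 and 7.39 CPM in Notch1f/f libraries and 0.832, 0.385 and 0.612 CPM in WT libraries. Every Notch1f/f library lay above all others, and the WT levels rest on 6 to 16 counts, which may stand for fewer fragments, as given below. The difference was 3.60 (SE 0.64, edgeR adjusted p = 0.0283) for Notch1f/f against WT and 2.05 (SE 0.62, edgeR adjusted p = 0.429) for DNMAML against WT. The Notch1f/f call held in 11 of 17 other settings. Among the settings that lost it were limma-voom (adjusted p = 0.132) and the fits without WT replicate 1, 2 or 3 (edgeR adjusted p = 0.104, 0.116 and 0.0952) or without Notch1f/f replicate 2 (edgeR adjusted p = 0.109). Platelets also hold this receptor in the mouse, and the platelet sums were 1795, 133 and 180 CPM in DNMAML, 665, 115 and 605 CPM in Notch1f/f and 761, 188 and 247 CPM in WT libraries. Their part in the F2rl3 values was not tested.
F2r, the main thrombin receptor of endothelium, had 166, 76.1 and 154 CPM in DNMAML, 54.4, 128 and 136 CPM in Notch1f/f and 200.2, 136 and 127 CPM in WT libraries, and the groups overlapped. F2rl2, a further member of the receptor family, had 30.2, 1.20 and 2.63 CPM in DNMAML, 9.13, 3.72 and 12.6 CPM in Notch1f/f and 15.4, 3.59 and 3.06 CPM in WT libraries. F2rl2 was highest in DNMAML replicate 1, the library with the highest platelet sum. The part of platelets in the F2rl2 values was not tested.

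Among 20 tested genes of Weibel-Palade bodies and of the handling of von Willebrand factor, 0 passed in any of the 3 comparisons. Lrp1, a receptor that clears factor VIII and von Willebrand factor, had 367, 152 and 213 CPM in DNMAML, 68.1, 45.0 and 88.3 CPM in Notch1f/f and 414, 222 and 204 CPM in WT libraries. Notch1f/f libraries lay below all others for Lrp1, with a difference of -2.06 (SE 0.42, edgeR adjusted p = 0.0692) against WT. Lrp1 is also high in fibroblasts and mural cells, and fibroblast markers summed to 375 to 1781 CPM in DNMAML, 195 to 678 CPM in Notch1f/f and 447 to 1428 CPM in WT libraries. Their part in the Lrp1 values was not tested.
Rab27a, chosen after its values were seen, encodes a small GTPase of Weibel-Palade bodies. It had 38.2, 44.7 and 46.2 CPM in DNMAML, 39.0, 47.4 and 54.5 CPM in Notch1f/f and 71.1, 75.2 and 63.5 CPM in WT libraries. Like Vwf, it was lower in each DNMAML and Notch1f/f library than in any WT library. The DNMAML difference was -0.70 (SE 0.15, edgeR adjusted p = 0.17) against WT, and in the blocked fit to the 6 libraries it fell by 0.70 (edgeR adjusted p = 0.0152). The Notch1f/f difference was -0.58 (SE 0.15, edgeR adjusted p = 0.0968). DESeq2 and limma-voom gave Rab27a adjusted p-values of 0.00686 and 0.309 for DNMAML against WT, and 0.0223 and 0.122 for Notch1f/f against WT.

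Among 6 tested genes that restrain platelets, 0 passed in the fit to all 9 libraries. Entpd1, the ectonucleotidase CD39 that removes ADP, had 115, 161 and 158 CPM in DNMAML, 212, 212 and 216 CPM in Notch1f/f and 219, 245 and 254 CPM in WT libraries. Both altered genotypes lay below every WT library. Its difference was -0.73 (SE 0.14, edgeR adjusted p = 0.139) for DNMAML against WT, and in the blocked fit it fell by 0.74 (edgeR adjusted p = 0.00511). For Entpd1 in DNMAML against WT, DESeq2 and limma-voom on all 9 libraries gave adjusted p-values of 0.000514 and 0.261. Against WT, Notch1f/f gave -0.17 (SE 0.14, edgeR adjusted p = 0.7). Notch1f/f against DNMAML gave 0.56 (SE 0.14, edgeR adjusted p = 0.427), with an adjusted p of 0.0278 from DESeq2 and 0.404 from limma-voom. Nos3, the endothelial nitric oxide synthase, had 35.2, 66.5 and 42.2 CPM in DNMAML, 57.8, 77.9 and 84.8 CPM in Notch1f/f and 42.8, 46.3 and 49.8 CPM in WT libraries, and Notch1f/f lay above every WT library (difference 0.67, SE 0.22, edgeR adjusted p = 0.188).

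Of the other lists, 0 of 6 tested anticoagulant genes, 0 of 7 coagulation genes and 0 of 8 genes of fibrinolysis passed in any of the 3 comparisons. Anxa5, which shields membrane phospholipid, and Pros1, the cofactor protein S, ran from 209 to 351 CPM and from 146 to 202 CPM with overlapping groups. Ggcx, the carboxylase of vitamin K-dependent factors, ran from 29.9 to 45.3 CPM. F5, which encodes factor V, a protein also made by megakaryocytes, had 190.0, 13.9 and 17.9 CPM in DNMAML, 70.4, 5.58 and 87.3 CPM in Notch1f/f and 92.4, 16.2 and 25.3 CPM in WT libraries. The platelet sums were 1795, 133 and 180 CPM in the same DNMAML libraries, 665, 115 and 605 CPM in Notch1f/f and 761, 188 and 247 CPM in WT, and F5 was high where they were high. The part of platelets in the F5 values was not tested.
Fga and Fgb, which encode fibrinogen chains made in the liver, were at 0 counts in all 9 libraries. In fibrinolysis, Anxa2, part of the cell-surface receptor for plasminogen activator, had 309, 427 and 302 CPM in DNMAML, 356, 518 and 517 CPM in Notch1f/f and 305, 314 and 386 CPM in WT libraries. The groups overlapped for Anxa2. S100a10, the partner of Anxa2, was chosen after its values were seen. In the blocked fit it rose in DNMAML libraries by 0.44 on the log2 scale (edgeR adjusted p = 0.0448), and in the fit to all 9 libraries its difference was 0.44 (SE 0.22, edgeR adjusted p = 0.906). The blocked fit was the only setting in which S100a10 passed for DNMAML against WT. Its Notch1f/f difference from WT was larger, at 0.71 (SE 0.22, edgeR adjusted p = 0.159). That difference passed without Notch1f/f replicate 1 (edgeR adjusted p = 0.0111) and with no filter (edgeR adjusted p = 0.000869).

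**Figure D5:**
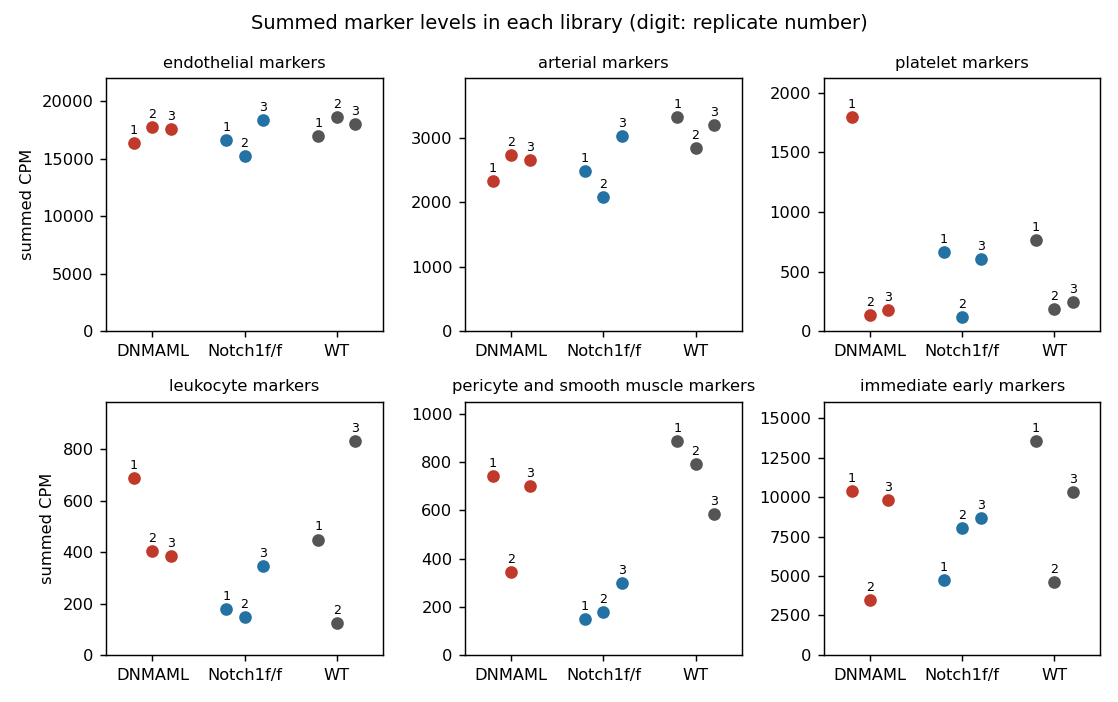
Summed CPM of 6 marker lists in each library, on linear axes from 0, by genotype; points are libraries with their replicate number. Arterial sums of DNMAML lie below those of WT, mural sums of Notch1f/f lie below the others, and the platelet sum of DNMAML replicate 1, 1795 CPM, stands above the rest.

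Genes with the most similar pattern over the 9 libraries were ranked by the root mean square difference of their centred log2 levels from those of each member, among 8980 genes with a mean of at least 10 CPM. The libraries share their depth, composition and genotypes, so these values only describe likeness. For Vwf the nearest was Psen2, which encodes a catalytic subunit of gamma-secretase, at 0.126, followed by Sgtb at 0.187 and Slc3a2 at 0.203. Thbd was matched by Sorbs3 at 0.0773, Kdsr at 0.0896 and the cytokine co-receptor gene Il6st at 0.0991. Tfpi lay nearest Pbrm1 at 0.0455, Hnrnpu at 0.0641 and Arid4b at 0.065.
The nearest gene lay farther off for the 3 genes that were high in Notch1f/f libraries. Sgtb and Slc3a2 lay about as far from Vwf as the nearest genes from Plat. The measure is not scaled by the spread of a gene, so genes that vary more tend to lie farther from others. Plat lay nearest Rab11fip5 at 0.187, Rab3il1 at 0.202 and Lcp1 at 0.217, and Rab11fip5 itself rose in Notch1f/f against WT, by 1.06 (edgeR adjusted p = 0.0244). F8 lay nearest Aplnr, the apelin receptor gene, at 0.187, followed by Nrros at 0.235 and Plekhg1 at 0.252. Aplnr rose by 1.30 (edgeR adjusted p = 0.0166), Nrros by 1.21 (edgeR adjusted p = 0.0219) and Plekhg1 by 0.89 (edgeR adjusted p = 0.0278) in Notch1f/f against WT. Procr lay nearest Tmem173 at 0.268, Gxylt2 at 0.321 and Prnp at 0.328, and none of these 3 passed the threshold. All these genes were picked for likeness to a member over the same 9 libraries, so their differences between genotypes are not separate results.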

How the data were processed

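RNA was sequenced from 9 libraries, with rRNA depletion and a strand-specific kit as 1 batch, as the labels' protocols say. The authors deposited whole-number read counts per gene, made with featureCounts 2.0.1 on GRCm39 with Ensembl annotation 107 and no option for strand, pairs or multimapping, per the file headers. STAR 2.7 and the build mm10 stand in the submitters' processing notes. Counts below 200 were even in 76.6% to 89% of cases, so fragments may enter as pairs. The counts given for F8, Procr and F2rl3 may then stand for fewer fragments. Symbols came from a GRCm38 annotation (52073 of 56748 identifiers).

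Tests used edgeR 4.0.16 in R 4.3.3: filterByExpr, TMM, robust quasi-likelihood fit to all 9 libraries by genotype alone. SE is the absolute log2 difference divided by the square root of F. DESeq2 1.42.0, limma-voom (limma 3.58.1), other scalings, no filter, blocks and left-out libraries were alternatives. Without the filter, p-values of the 6 genes matched a normal distribution at the ratio of difference to SE. For Vwf in DNMAML against WT, unadjusted edgeR p was 1.89e-09 without the filter (SE 0.17) and 0.000262 with it (SE 0.20). The labels do not say what the library number marks. Deviations of same-numbered DNMAML and WT libraries correlated at 0.238, 0.344 and 0.179, so they were taken as pairs. Same-numbered Notch1f/f and WT libraries gave -0.13, -0.02 and 0.191, and Notch1f/f with DNMAML -0.12, 0.06 and 0.212, so these were not. For replicate 3, though, 0.191 and 0.212 were no lower than the 0.179 of DNMAML with WT, so this choice rests on replicates 1 and 2. Differently numbered DNMAML and WT libraries gave -0.27 to 0.0774. Notch1f/f replicate 1, however, gave 0.352 with WT replicate 2 and 0.306 with DNMAML replicate 2, so shared deviations were not limited to equal numbers. Those libraries were also the lowest in immediate early genes. Members and lists were chosen with earlier results of these data known. Beside the 6 genes, up to 4 genes past the threshold and the 2 highest by mean CPM were named per haemostasis list, and 3 most alike genes per member. Some genes that this rule names are not reported here.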

Additional observations from a re-analysis of the deposited data

How the results depend on the processing

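Over 17 settings and 3 comparisons, the differences of the 6 genes kept direction and side of the threshold in 285 cases, passed only under the alternative in 14, lost the threshold in 5 and turned sign in 2. The 5 losses were all Plat, and the 2 turns were Tfpi in Notch1f/f against DNMAML (-0.0064 without DNMAML replicate 1, -0.040 without Notch1f/f replicate 2). Leaving out each library in turn gave -0.040 to 0.10 for that difference. The causes of these shifts were not tested.

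For DNMAML against WT, where the fit to all 9 libraries called 0 of the 6 genes and 1 gene in all, no filter on low counts gave 1 and 460, DESeq2 gave 1 and 213, limma-voom gave 0 genes in all, and the 2 genotypes alone gave 1 and 78. For Notch1f/f against WT, against 1 of the 6 genes and 163 in all, no filter gave 4 and 1415, DESeq2 gave 3 and 1061, and limma-voom gave 49 in all. For Notch1f/f against DNMAML, against 0 of the 6 and 4 in all, no filter gave 1 and 696, DESeq2 gave 1 and 174, and the 2 genotypes alone gave 1 gene in all. Calls of the 6 genes with no filter rest on p-values that took the spread as known, as given above.

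With a replicate block on the 6 libraries compared, 2 of the 6 genes and 310 genes in all passed for DNMAML against WT, 0 and 92 for Notch1f/f against WT, and 8 genes in all for Notch1f/f against DNMAML. With the replicate block on all 9 libraries the counts over all genes were 4 for DNMAML against WT and 279 for Notch1f/f against WT. Set against the unblocked fit to the same libraries, the block changed the calls of Thbd in DNMAML against WT and of Plat in Notch1f/f against WT, and no other call of the 6 genes. Whether same-numbered Notch1f/f and WT libraries belong together is not in the labels. The block on the 6 Notch1f/f and WT libraries gave edgeR adjusted p-values of 0.0536 for Plat, 0.0561 for F2rl3 and 0.0469 for Lrp1.

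Leaving out each library in turn gave 0 to 1 of the 6 genes and 0 to 94 genes in all for DNMAML against WT, 0 to 2 and 13 to 530 for Notch1f/f against WT, and 0 to 0 and 2 to 31 for Notch1f/f against DNMAML. The highest counts over all genes came without Notch1f/f replicate 1 in both comparisons with WT and without DNMAML replicate 2 between Notch1f/f and DNMAML. For Notch1f/f against WT, 13, 18 and 47 genes passed without WT replicates 1, 2 and 3, and 36 without Notch1f/f replicate 2. Depth limits F8, Procr and F2rl3, which rest on few counts in WT libraries, and 3 libraries a genotype limit every comparison.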

Other observations

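Notch1f/f replicate 2 had the highest level of all 9 libraries for 4 of the 6 genes, namely Procr, Tfpi, Plat and F8. The same library stood high for 3 of 10 venous markers, chosen after their values were seen. Over the whole venous list, 5 point estimates were above 0 and 5 below in Notch1f/f against WT, with a median difference of 0.02, and the sum in this library was 1353 CPM, against 1299 CPM in WT replicate 3. Selp, which encodes P-selectin of Weibel-Palade bodies, had 16.8, 5.39 and 12.3 CPM in DNMAML libraries, 6.98, 81.6 and 21.4 CPM in Notch1f/f libraries and 21.3, 6.28 and 18.0 CPM in WT libraries. Ackr1, a chemokine-binding receptor, had 16.2 CPM in Notch1f/f replicate 2 and at most 3.44 CPM in the others, and Ackr3, of the same family, had 352 CPM there and at most 254 CPM elsewhere. Vwf and Thbd were not highest in that library, at 999.5 and 1660.3 CPM.

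Hs3st1, chosen after its values were seen, encodes a sulfotransferase that makes the heparan sulfate site bound by antithrombin. It had 55.6, 64.3 and 90.6 CPM in DNMAML libraries, 56.9, 38.2 and 75.4 CPM in Notch1f/f libraries and 124, 163 and 120.1 CPM in WT libraries, so both altered genotypes lay below every WT library. The difference was -0.95 (SE 0.26, edgeR adjusted p = 0.348) for DNMAML against WT and -1.26 (SE 0.26, edgeR adjusted p = 0.056) for Notch1f/f against WT.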
